A study of Mus musculus with 11 samples.

Results

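Expression of 10 genes was followed in the E14.5 Syncrip cKO mouse: 7 HECT ubiquitin ligases of the Nedd4 family (Nedd4, Nedd4l, Itch, Wwp1, Wwp2, Smurf1 and Smurf2), their 2 membrane adaptors (Ndfip1 and Ndfip2), and the RING ligase Trim2. They were taken by name from the 48440 genes of the RNA-seq count table and from the 32285 genes of each scRNA-seq matrix, and all 10 were present once in both. RNA-seq covered 3 WT and 3 cKO cultures of neural progenitor cells (NPCs), which were dissected from the lateral ventricles at E14.5 and grown with EGF and bFGF. scRNA-seq covered the dorsal cortex of 1 WT and 1 cKO embryo from the same mother. In cKO mice (Syncrip fl/fl; Emx1-Cre, C57BL/6) exons 2 to 4 of Syncrip are removed by a Cre that is active in the dorsal neocortex, so that cells born in the ganglionic eminences (GE), which also entered the dissected tissue, are not its main target. Whether the cultures came from separate embryos is not given, so p-values measure the spread between these cultures, which may be technical.

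Ubiquitin ligases attach ubiquitin to chosen proteins and so mark them for degradation or sorting. The HECT ligases of the Nedd4 family bind short proline-rich motifs of their substrates through WW domains and pass ubiquitin on from their own catalytic cysteine, and the Ndfip proteins recruit and activate them at endosomal and Golgi membranes. Nedd4 is known in neurons for its part in neurite growth, and Trim2, which carries a RING, a B-box, a coiled coil and an NHL domain, for its part in axon outgrowth and in the turnover of neurofilament light chain.

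Nedd4 and Trim2 were both lower in cKO cultures, and the 250 bases before 1 start site of each are shown to place them beside each other. Windows that held an exon base of GENCODE M21 were left out. Nedd4 lies at chr9:72662346-72749852 (plus strand) and Trim2 at chr3:84160439-84306877 (minus strand) in mm10. The shown Nedd4 window is chr9:72662081-72662330 and that of Trim2, for an internal start site, is chr3:84212839-84213088, both of RefSeq on GRCm38.p6 and given 5′ to 3′ on the gene's strand. Capitals mark the GC box (GGGCGG on either strand).
Nedd4: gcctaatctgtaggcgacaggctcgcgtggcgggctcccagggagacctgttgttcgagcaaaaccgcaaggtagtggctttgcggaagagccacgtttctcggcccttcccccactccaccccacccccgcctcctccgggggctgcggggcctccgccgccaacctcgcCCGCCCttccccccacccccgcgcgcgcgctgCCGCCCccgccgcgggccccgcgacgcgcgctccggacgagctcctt
Trim2: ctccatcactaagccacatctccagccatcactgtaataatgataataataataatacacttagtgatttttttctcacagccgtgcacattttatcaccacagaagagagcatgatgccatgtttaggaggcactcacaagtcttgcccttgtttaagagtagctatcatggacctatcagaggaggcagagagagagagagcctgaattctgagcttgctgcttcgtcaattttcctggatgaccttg
The Nedd4 window held 32 CpG and 74.0% G or C with 2 GC boxes. The Trim2 window held 2 CpG and 42.8% G or C, and GGGCGG was not in it. Of 5 Trim2 windows in RefSeq 2 held a GC box, and of 2 Nedd4 windows 1 did. The Trim2 windows not shown held 0 to 16 CpG and 49.2 to 57.2% G or C. The Nedd4 window not shown held 9 CpG and 46.0% G or C, so the contrast depends on the windows shown. Over all 32851 windows of 250 bases, with or without exon bases, the median was 6.0 CpG and 52.4% G or C, and 32.7% held a GC box.

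The targeted gene, Syncrip, an RNA-binding protein, had 77.9, 79.8 and 79.9 CPM (counts scaled for depth) in WT, against 90.3, 88.7 and 81.5 CPM in cKO. Its log2 fold change was 0.13 (adjusted p = 0.180, edgeR quasi-likelihood test). The count covers the whole gene and not the deleted exons alone, so that it checks the labels little. Total counts per culture were between 16962903 and 22708400, with 2.91 to 4.80% from mitochondrial genes. More than 100 Y-linked counts were present in 3 cultures, 2 WT and 1 cKO.

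In the cultures, 3 of the 10 members were lower in cKO and 7 did not pass the test. Trim2 and Nedd4l fell by about the same share, and Nedd4, the most abundant of the 10, fell less. Trim2 stood at 214, 202 and 237 CPM in the WT cultures, against 115, 128 and 117 CPM in the cKO cultures. Every cKO culture lay below every WT culture. Trim2 fell by 44.9%, a log2 fold change of -0.86 with a standard error of 0.08 (adjusted p = 3.08e-06 by edgeR). Nedd4l, which is known for the ubiquitination of ion channels, had 117, 124 and 144 CPM in the WT cultures, against 75.6, 78.5 and 72.1 CPM in the cKO ones. Its groups did not overlap either. It fell by 41.2%, a log2 fold change of -0.77 with a standard error of 0.09 (adjusted p = 1.18e-05 by edgeR). Nedd4, the founding member of the family, reached 1142, 1006 and 1026 CPM in the WT cultures, against 868, 840 and 843 CPM in the cKO ones. The lowest WT culture was above the highest cKO culture. Nedd4 fell by 19.6%, a log2 fold change of -0.31 with a standard error of 0.08 (adjusted p = 0.00856 by edgeR). When cKO replicate 3 was left out, the log2 fold change stayed at -0.31 and its adjusted p by edgeR was 0.0530.

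These counts stood against a wide change in the cultures as a whole. Of the 14432 genes tested, 39.5% were called at an adjusted p under 0.05, 19.7% as higher and 19.8% as lower in cKO, and in 50.4% the 3 WT and 3 cKO values did not overlap. The share of members called, 30%, was thus not above that of all genes. The median log2 fold change was -0.06 over the 10 members and 0.00 over all genes tested.

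**Figure D1:**
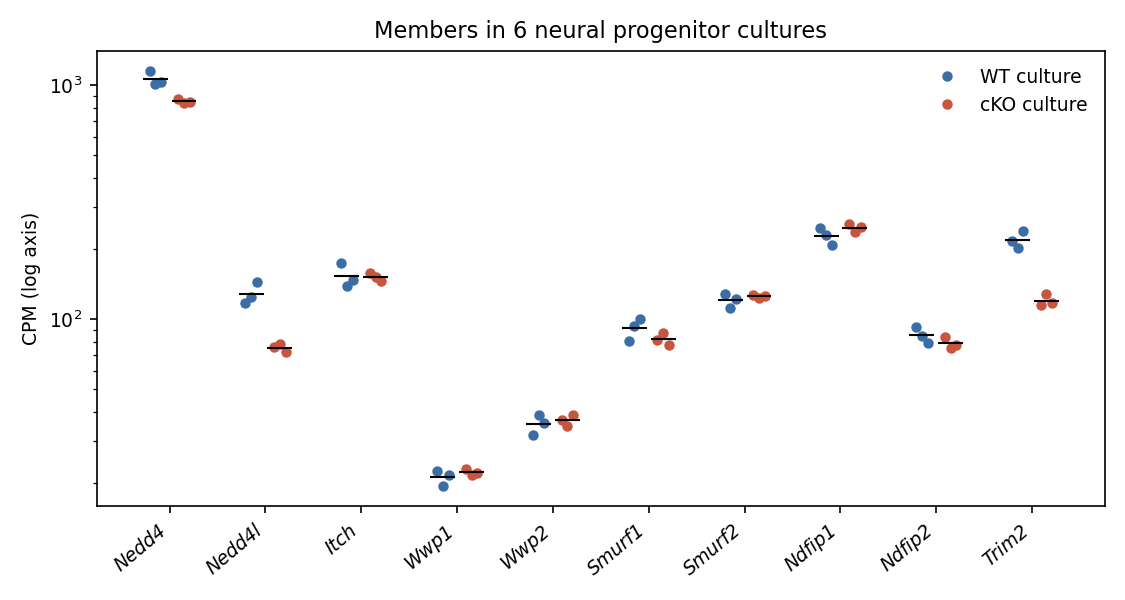
CPM of the 10 members in each of the 3 WT (blue) and 3 cKO (red) cultures on a log axis, with the mean of each genotype as a line. The groups are apart in Nedd4, Nedd4l and Trim2 and overlap in the other 7 members.

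The other ligases overlapped between genotypes. Itch, a ligase known for its part in limiting T cell activation through JunB, ranged from 138 to 173 CPM in WT and from 146 to 158 CPM in cKO. Its log2 fold change was -0.01 (adjusted p = 0.933 by edgeR) and turned positive in 3 of 14 other analyses, at most 0.08. The near relatives Wwp1 and Wwp2 both had a log2 fold change of 0.06, with 19.4 to 22.5 CPM in WT and 21.6 to 22.8 CPM in cKO for Wwp1, and 31.8 to 38.9 and 34.8 to 38.9 CPM for Wwp2. Smurf1 and Smurf2 are known for acting on the BMP and TGF-beta pathways through Smad proteins and receptors. Smurf1 ranged from 80.5 to 100.2 CPM in WT and from 77.5 to 87.4 CPM in cKO, with a log2 fold change of -0.15 (adjusted p = 0.190 by edgeR). Without WT replicate 1, which had the lowest WT value of Smurf1, its log2 fold change was -0.25 with an adjusted p of 0.0120 by edgeR. Smurf2 ranged from 112 to 127 CPM in WT and from 123 to 126 CPM in cKO, with a log2 fold change of 0.06. The signs of Wwp1, Wwp2 and Smurf2 turned when 1 WT culture was left out.

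The adaptors did not pass the test in either direction. Ndfip1 had 245, 229 and 207 CPM in WT and 254, 236 and 247 CPM in cKO, a log2 fold change of 0.12 (adjusted p = 0.281 by edgeR). Ndfip2 had 92.1, 84.4 and 78.8 CPM in WT and 83.4, 75.1 and 77.5 CPM in cKO, a log2 fold change of -0.11 (adjusted p = 0.299 by edgeR). The cultures of both genotypes overlapped in both adaptors.

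Levels of different members were compared per kilobase of exon (exons of GENCODE M21, merged per gene). In WT cultures Nedd4 was the highest at 96.4 ± 6.69 CPM per kb (SD, n = 3), followed by the adaptor Ndfip1 at 35.8 ± 2.99. Below them came Smurf2 at 19.5 ± 1.27, Itch at 15.7 ± 1.85 and Smurf1 at 14.4 ± 1.58. Itch and Smurf1 overlapped between cultures, with 14.3 to 17.8 and 12.7 to 15.8 CPM per kb, and could not be put in order. Trim2 followed at 11.02 ± 0.898, then Ndfip2 at 7.37 ± 0.5799 and Nedd4l at 7.26 ± 0.775, which overlapped, and Wwp2 at 4.01 ± 0.404 and Wwp1 at 3.27 ± 0.247 were the lowest. In cKO cultures Nedd4 was still the highest at 77.5 ± 1.42 CPM per kb, and Trim2 (6.07 ± 0.338) stood below Ndfip2 (6.81 ± 0.366) on average, which it exceeded in WT. The deposited table gives the whole span of each gene as its length, so whether reads in introns were counted is not known, and the order depends on it. Per kilobase of span Ndfip2 stood above Itch and Trim2 in WT, and Trim2 above Smurf2 and Smurf1. Of the span of Wwp1, 42.5% is shared with the antisense gene Gm12353, and whether strand was used in counting is not given, so its level is uncertain.

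Markers of other cell types moved in the same cultures. Of the 10 neuron markers tested, 8 were lower, among them Stmn2 (-6.56), Syt4 (-4.33) and Neurod6 (-4.14), and the others did not pass (median log2 fold change -0.90). Their summed level, led by Map2, was 2159 to 2494 CPM in WT and 2250 to 2377 CPM in cKO. Of the 7 astrocyte markers tested 6 were lower (median -0.89), and their summed level was 5873 to 6128 CPM in WT and 3107 to 3536 CPM in cKO. Of the 8 markers of the oligodendrocyte lineage, 3 were lower, among them the myelin genes Mbp and Cnp, and Olig1 and Pdgfra were higher, with a summed level of 4614 to 5008 CPM in WT and 3275 to 3877 CPM in cKO. Of the 6 GE markers tested 3 were lower, and 5 of 10 microglial markers were at 0 counts in all cultures. The markers of immature neurons in the tissue moved in both directions, with 4 of 9 lower and 3 higher (Sox5, Tle4 and Mef2c), and summed to 433 to 459 CPM in WT and 524 to 542 CPM in cKO. The microglial markers summed to 0.891 to 1.69 CPM in WT and 1.86 to 2.68 CPM in cKO, and the endothelial ones to 9.18 to 13.2 and 8.03 to 10.3 CPM. The part of this shift in the lower Trim2, Nedd4l and Nedd4 was not tested, and in such bulk samples fewer cells of a type and less RNA per cell cannot be told apart.

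Other genes of the ubiquitin pathway were given by lists. Among 17 further HECT ligases tested, 7 were higher and 2 lower in cKO (median log2 fold change 0.21). Hecw1, which is counted in the wider Nedd4 family and is known from neurons, had the largest change of them, with 3.33, 3.23 and 5.22 CPM in WT and 0.196, 0.291 and 0.530 CPM in cKO (log2 fold change -3.50, standard error 0.37, adjusted p = 8.51e-06 by edgeR). The next called genes of this list were higher, Hectd2 at a log2 fold change of 0.60, Herc4 at 0.42 and Ube3a, the ligase affected in Angelman syndrome, at 0.33. Hecw1 thus went the same way as Trim2 and Nedd4l, and 7 of the other 8 called ligases of its list went the other way.

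Of 7 further Trim ligases tested, 1 passed, Trim67, known in neurons, at -0.69 (adjusted p = 0.00151 by edgeR). Trim3, the nearest relative of Trim2, was at -0.15 and did not pass (adjusted p = 0.220 by edgeR). Of the 8 E1 and E2 enzymes, which activate and carry ubiquitin before a ligase takes it, 2 were higher: Ube2l3, a carrier much used by HECT ligases, at 0.95 with a mean of 1.95 CPM in WT and 3.796 CPM in cKO, and Ube2e1 at 0.26. Of 13 adaptors and regulators, 2 were higher and 2 lower. Arrdc3, an arrestin-like protein that joins Nedd4 ligases to receptors, had a mean of 80.4 CPM in WT, against 224 CPM in cKO (log2 fold change 1.48, adjusted p = 2.24e-08 by edgeR). The kinase Sgk3 was also higher (0.33), and Wbp2 (-0.65), which carries motifs bound by WW domains, and the arrestin Arrb1 (-0.43) were lower.

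The 29 described substrates tested moved in both directions, 10 higher and 6 lower (median 0.08). The largest changes were those of the transcription factors Egr2 (log2 fold change 5.38) and Junb (4.05), which were higher, and of the glutamate receptor subunit Gria1 (-2.74) and the chemokine receptor Cxcr4 (-2.12), which were lower. Junb had a mean of 5.35 CPM in WT and 89.1 CPM in cKO, whereas its ligase Itch had a log2 fold change of -0.01. Of the Rap2 GTPases, substrates of Nedd4 in dendrites, Rap2a (-0.54) and Rap2c (-0.52) were lower and Rap2b, at -0.02, did not pass. RNA was measured, not protein.

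In the tissue, UMIs were summed over the cells of each class and embryo and given as CPM of that class. The WT matrix held 8289 and the cKO matrix 9659 barcodes, 22 of which had the same sequence in both, and 8214 and 9559 cells were kept with a median of 11705 and 11016 UMIs. Clusters were named by markers as apical progenitors (APs, 958 WT and 1317 cKO cells), intermediate progenitors (1179 and 1169), migrating neurons (1696 and 1942), immature neurons (875 and 1026), GE cells (1191 and 1641) and smaller classes, each only "like" the cell type. All 10 AP markers, 8 of 8 for intermediate progenitors and migrating neurons, 8 of 10 for immature neurons and 10 of 10 for GE cells were raised at least 1.5-fold in their class. A cluster of 116 WT and 106 cKO cells met the limits for meningeal fibroblasts, but pericyte markers (Rgs5, Vtn) were also among its leading genes. At resolution 1.2 there stood in its place a pericyte-like cluster of 103 WT and 80 cKO cells and a fibroblast-like cluster of 13 and 26 cells, so it is called mixed fibroblasts and pericytes. Another 5 clusters with 4136 cells stayed unnamed. With 1 embryo per genotype, and embryos of different sex, no difference between genotypes in tissue could be tested, and intervals cover counting error only. Syncrip was read at 315 and 323 CPM in WT and cKO APs, but tags of the 3′ end lie outside the deleted exons and do not check the deletion.

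Nedd4 and Trim2 peaked at different steps from progenitor to neuron. With the WT embryo given first, Nedd4 was at 716 and 525 CPM in APs, at 536 and 426 CPM in intermediate progenitors, at 174 and 136 CPM in migrating neurons, and at 242 and 188 CPM in immature neurons. It was thus lowest in migrating neurons among the named classes of the dorsal lineage in both embryos. The immature neuron class was 1 cluster, led by Hs3st4. Unnamed clusters nearest to immature neurons by markers read 195 and 146, 149 and 109, 172 and 105, and 359 and 295 CPM of Nedd4. The order of migrating and immature neurons thus depends on which clusters were named. Outside the dorsal lineage Nedd4 was high in mixed fibroblasts and pericytes (644 and 815 CPM) and endothelial cells (590 and 619 CPM). It was intermediate in GE cells (438 and 456 CPM) and Cajal-Retzius cells (355 and 308 CPM), and low in microglia (34.0 and 26.2 CPM). The microglial values came from 13 and 10 UMIs and lay below those of red blood cells (44.5 and 36.8 CPM). Mixed fibroblasts and pericytes, APs and endothelial cells overlapped between embryos and could not be ordered. Intermediate progenitors overlapped with APs and with GE cells, and within each embryo they were below APs.

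Among the named classes, Trim2 was highest in intermediate progenitors, with 1007 and 963 CPM, followed by migrating neurons at 781 and 666 CPM. GE cells (474 and 502 CPM) and APs (474 and 421 CPM) came next and overlapped. Immature neurons had 251 and 235 CPM and Cajal-Retzius cells 222 and 226 CPM of Trim2. In endothelial cells (63.3 and 68.0 CPM) and microglia (73.3 and 39.4 CPM) Trim2 stood at or below its level in red blood cells (93.5 and 89.9 CPM). Red blood cells should lack it, and whether their Trim2 UMIs are free RNA was not tested. CPM alone do not show whether Trim2 in these small classes is background, since depth per cell differed. The median was 39427 and 22067 UMIs in endothelial cells and 11324 and 3457 in microglia. Trim2 was read in 66.7 and 27.3% of endothelial cells, 22.6 and 18.4% of microglia and 16.7 and 16.1% of red blood cells. Red blood cells had a median of 3570 and 3100 UMIs per cell.

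Among the named classes, Nedd4l had its highest level in migrating neurons, with 1014 and 985 CPM. Intermediate progenitors followed at 704 and 659.5 CPM, then GE cells at 586 and 591 CPM. Immature neurons had 579 and 531 CPM and APs 368 and 358 CPM. No neighbours in this order overlapped between embryos. The counting intervals of GE cells and immature neurons overlapped in the WT embryo. Within each embryo, APs were thus the highest named dorsal class for Nedd4 and the lowest for Nedd4l, and migrating neurons the reverse. Unnamed clusters of few UMIs per cell read more Nedd4l, with 1601 and 1302 CPM (median 1158 UMIs) and 1696 and 1335 CPM (median 2540.5 UMIs). The other unnamed clusters read 757 and 729, 861 and 816, and 140 and 122 CPM. In red blood cells Nedd4l read 66.8 and 164 CPM, beside 123 and 108 CPM in microglia and 102 and 89.1 CPM in endothelial cells. Both were above red blood cells in the WT embryo and below them in the cKO embryo.

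The other ligases were flatter over the neural classes. Itch was between 84.2 and 179 CPM in the 5 large classes, lowest in immature neurons (86.7 and 84.2 CPM) and highest in intermediate progenitors (171 and 179 CPM). Smurf2 was likewise lowest in immature neurons (84.3 and 85.6 CPM) and highest, of these, in GE cells (144 and 145 CPM). Smurf1 stayed between 21.6 and 37.2 CPM in all 5, below endothelial cells at 49.3 and 59.7 CPM. Wwp1 and Wwp2 had their highest level in microglia, with 144 CPM (95% interval 108 to 187) and 200 CPM (157 to 250) for Wwp1 in the WT and cKO embryo and 115 CPM (83.7 to 155) and 171 CPM (132 to 217) for Wwp2. The next class was at 58.1 and 44.7 CPM for Wwp1 (Cajal-Retzius cells) and at 42.3 and 39.6 CPM for Wwp2 (intermediate progenitors). The microglial class held 31 WT and 49 cKO cells with a median of 11324 and 3457 UMIs, and Wwp1 and Wwp2 were highest there in both embryos. One of its 2 clusters, of 17 WT and 16 cKO cells, gave 54 of 55 WT and 69 of 76 cKO UMIs of Wwp1, and 41 of 44 and 52 of 65 UMIs of Wwp2. The other cluster read 28.9 and 79.4 CPM of Wwp1 from 1 and 7 UMIs.

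Both adaptors were highest in Cajal-Retzius cells, the early-born neurons of the marginal zone. Ndfip1 stood there at 595 and 576 CPM, against 353 and 352 CPM in immature neurons and 210 and 214 CPM in APs. Ndfip2 was at 106 and 133 CPM in Cajal-Retzius cells, which overlapped with GE cells (101 and 109 CPM), and at 46.6 and 47.4 CPM in APs. From APs over intermediate progenitors and migrating neurons to immature neurons Ndfip1 was higher at each step in both embryos. Ndfip2 was higher at each step up to migrating neurons, where it was 93.8 and 92.7 CPM, and was 97.9 and 89.6 CPM in immature neurons.

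**Figure D2:**
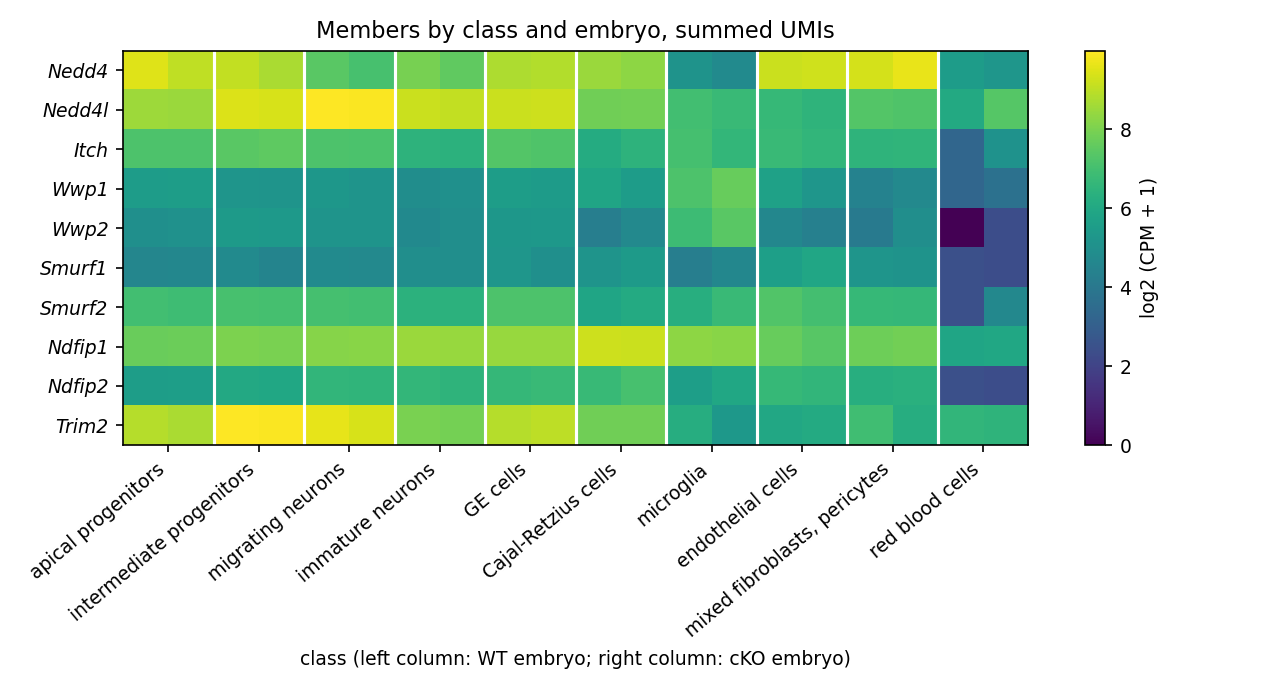
Level of each member (rows, log2 of CPM + 1) in 10 marker-named classes (pairs of columns, WT embryo left and cKO embryo right). Nedd4 is brightest in APs, endothelial cells and mixed fibroblasts and pericytes, Nedd4l in migrating neurons (1014 and 985 CPM), Trim2 in intermediate progenitors (1007 and 963 CPM), and Wwp1 and Wwp2 in microglia.

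Over the 20 profiles (10 classes in each of 2 embryos, log2 of CPM + 1), Pearson's r between members was highest for Itch and Smurf2 (0.96), Smurf1 and Ndfip2 (0.95) and Nedd4l and Trim2 (0.91), and it was 0.27 between Nedd4 and Nedd4l. The profiles come from the same 2 libraries, and red blood cells, where most members were low, are among them. Among 7484 genes with a mean of at least 20 CPM, those most like Nedd4 were Tead1 (r = 0.97), Gnai1 (0.92) and Klhl13 (0.92), and those most like Trim2 were Gm3764 (0.96), Kif21a (0.96) and C130071C03Rik (0.95). Tead1 encodes a transcription factor of the Hippo pathway, and Kif21a a neuronal kinesin.

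Between the embryos, Nedd4 was lower in cKO in each class of the dorsal lineage. The log2 ratio of cKO over WT was -0.45 in APs (95% counting interval -0.49 to -0.41), -0.33 in intermediate progenitors (-0.38 to -0.29), -0.35 in migrating neurons (-0.43 to -0.28) and -0.36 in immature neurons (-0.43 to -0.29). In the cultures the log2 fold change had been -0.31. In GE cells the log2 ratio was 0.06 (0.00 to 0.11), in endothelial cells 0.07 (-0.08 to 0.23) and in Cajal-Retzius cells -0.20 (-0.42 to 0.02). In mixed fibroblasts and pericytes Nedd4 was higher in the cKO embryo, at 0.34 (0.17 to 0.51). With 1 embryo each, whether the classes differ in this ratio was not tested.

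The clusters within these classes were looked at one by one for Nedd4. All 13 clusters of the 4 dorsal classes were lower in the cKO embryo, with log2 ratios from -0.56 to -0.15 and intervals wholly below 0. The 5 GE clusters ranged from -0.39 to 0.28, and 2 had intervals wholly above and 2 wholly below 0. The cluster with Sst, Maf and Lhx6 among its leading genes was at 0.28 (0.18 to 0.37), and that led by Ebf1 and Isl1 was at 0.24 (0.04 to 0.44). A cluster of 50 WT and 62 cKO cells, led by Nxph1, Erbb4 and Sst, was at -0.39 (-0.60 to -0.18). The near 0 value of all GE cells was thus the sum of clusters that went in different directions. Of the 5 unnamed clusters 4 were lower with intervals below 0.

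**Figure D3:**
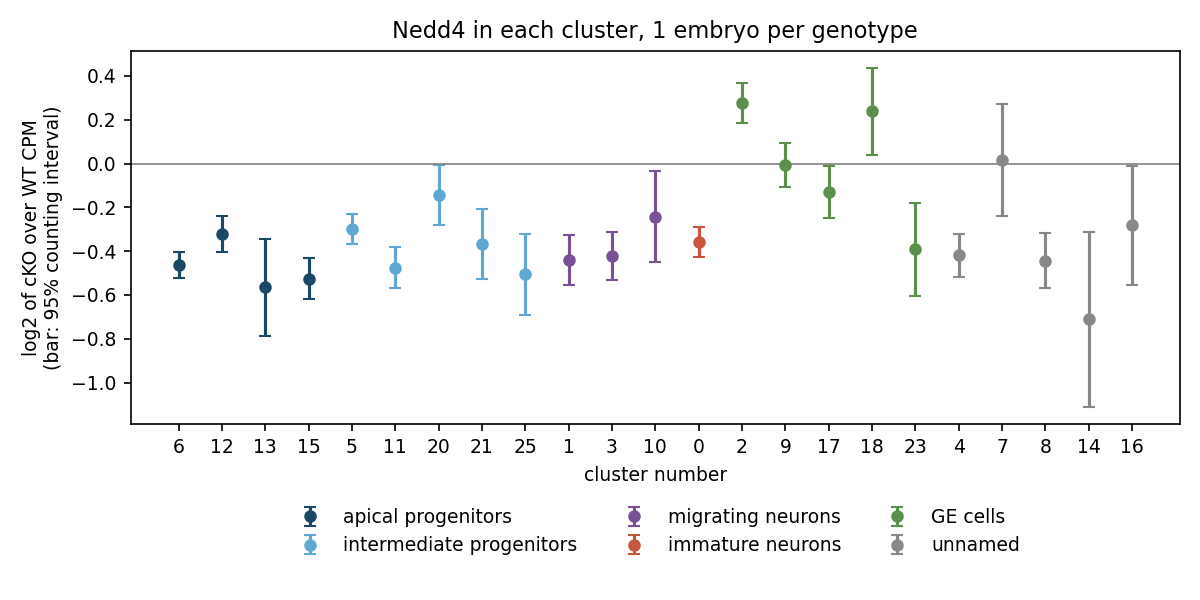
Log2 ratio of Nedd4 CPM, cKO over WT embryo, in each cluster with at least 100 Nedd4 UMIs of the 5 large classes and of the unnamed cells (bars: 95% counting interval). All 13 clusters of the 4 dorsal classes lie below 0, from -0.56 to -0.15, and the 5 GE clusters lie on both sides of it.

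Trim2 had ratios nearer 0 in tissue than in the cultures, which was not tested. Its log2 ratio was -0.17 in APs (-0.22 to -0.12), -0.06 in intermediate progenitors (-0.10 to -0.03), -0.23 in migrating neurons (-0.26 to -0.20) and -0.10 in immature neurons (-0.16 to -0.03), against 0.08 in GE cells (0.03 to 0.14). All 4 dorsal values were smaller in size than the -0.86 of the cultures. The value in migrating neurons depended on 1 cluster, led by Tafa1 and Tfap2d, of 124 WT and 466 cKO cells, in which Trim2 was at 669 and 423 CPM. Without this cluster the log2 ratio of Trim2 in migrating neurons was -0.10 (-0.14 to -0.07). Where S, G2/M and G1 cells had equal weight, that in APs was -0.12. Of the 13 dorsal clusters 12 were lower for Trim2, 7 of them with intervals wholly below 0, and the values ranged from -0.66 to 0.07. Of the 5 GE clusters 1 had an interval wholly above 0 (0.28, 0.14 to 0.42) and 2 were below 0.

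Nedd4l, which had fallen by 41.2% in cKO cultures, had a log2 ratio of -0.04 in APs (-0.09 to 0.01), -0.09 in intermediate progenitors (-0.13 to -0.06), -0.04 in migrating neurons (-0.07 to -0.01), -0.12 in immature neurons (-0.17 to -0.08) and 0.01 in GE cells (-0.03 to 0.06). In migrating neurons it was 0.03 (0.00 to 0.06) without the cluster led by Tafa1 and Tfap2d. In APs it was -0.15 with cells thinned to 5000 UMIs and -0.11 without called doublets. Of the 13 dorsal clusters 8 were lower for Nedd4l, and values ranged from -0.33 to 0.10. The interval was wholly below 0 in 5 and wholly above 0 in 1. The AP cluster led by Aldoc and Hes5 was at -0.18 (-0.25 to -0.11). That led by Hist1h1b and Hist1h2ap, of 160 WT and 277 cKO cells, was at 0.10 (-0.003 to 0.21). The other AP clusters were at -0.05 and 0.005.

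**Figure D4:**
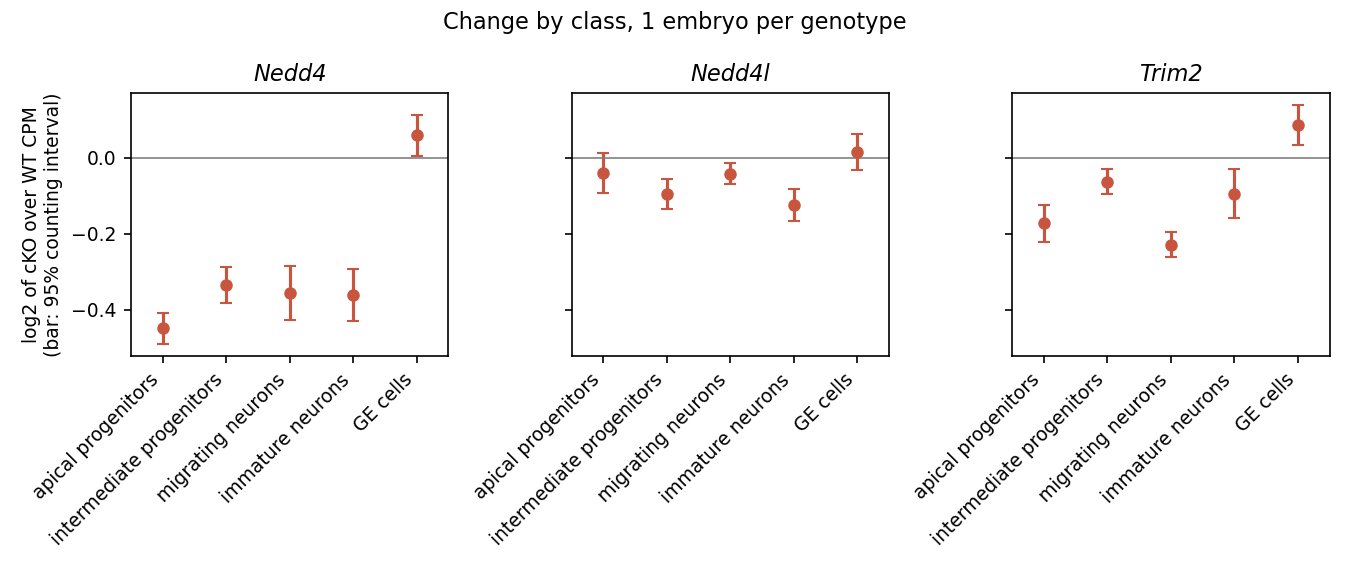
Log2 ratio of CPM, cKO over WT embryo, for the 3 members that were lower in cKO cultures, in 5 classes (bars: 95% counting interval, 1 embryo per genotype). Nedd4 lies between -0.45 and -0.33 in the 4 dorsal classes and at 0.06 in GE cells, while Nedd4l and Trim2 stay within 0.23 of 0.

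The remaining members had ratios near 0 in APs. The log2 ratios were 0.00 for Itch (-0.09 to 0.08), 0.04 for Wwp1 (-0.11 to 0.20), 0.09 for Wwp2 (-0.10 to 0.28), 0.03 for Smurf1 (-0.18 to 0.25), -0.09 for Smurf2 (-0.18 to 0.01), 0.03 for Ndfip1 (-0.04 to 0.10) and 0.02 for Ndfip2 (-0.13 to 0.18). Smurf1 was lower in intermediate progenitors at -0.29 (-0.51 to -0.08), from 26.5 to 21.6 CPM, and in GE cells at -0.28 (-0.48 to -0.08), from 37.2 to 30.6 CPM. Over the alternatives run, the value in intermediate progenitors ranged from -0.30 to -0.15. It was at -0.08 in migrating neurons and 0.00 in immature neurons, with intervals that held 0. Smurf2 was at -0.09 (-0.17 to -0.01) in migrating neurons. Ndfip2 was at -0.13 (-0.23 to -0.02) in immature neurons and Ndfip1 at 0.06 (0.01 to 0.11) in migrating neurons, which was -0.03 without the cluster led by Tafa1 and Tfap2d.

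A log2 ratio of at least 0.2 in size was reached by 1 of the 10 members in APs (Nedd4) and 1 in immature neurons (Nedd4), by 2 in intermediate progenitors (Nedd4 and Smurf1) and 2 in migrating neurons (Nedd4 and Trim2), and by 1 in GE cells (Smurf1). Among all genes with at least 200 UMIs in the class, such a ratio was reached by 23.1% in APs, 21.8% in intermediate progenitors, 21.7% in migrating neurons, 20.4% in immature neurons and 19.1% in GE cells. In APs 10.1% of genes were lower by that much. The members' median was 0.01 in APs and in GE cells, -0.07 in intermediate progenitors, -0.06 in migrating neurons and -0.02 in immature neurons, beside medians over all genes from -0.01 to 0.01. The share of members past 0.2 was 10 or 20%, not above that of all genes. The genes were not matched to the members in UMIs, so these shares compare genes of unlike counting error.

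**Figure D5:**
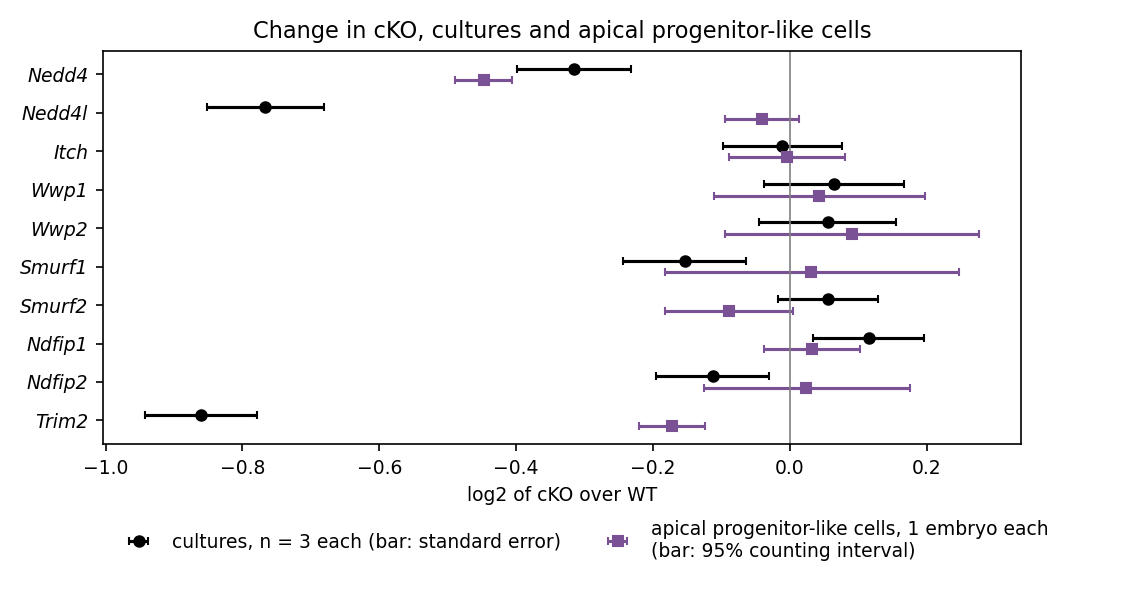
Log2 of cKO over WT for each member in the cultures (black, n = 3 each, bars show the standard error) and in AP-like cells (purple, 1 embryo each, bars show the 95% counting interval). Nedd4 is below 0 in both, while Nedd4l and Trim2 are at -0.77 and -0.86 in cultures and at -0.04 and -0.17 in APs.

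In APs the related lists had shares past a log2 ratio of 0.2 on both sides of the 23.1% of all genes. Of 16 other HECT ligases with at least 200 UMIs there, 2 were higher and 1 lower by a log2 ratio of at least 0.2 (median 0.04), and the 8 E1 and E2 enzymes all stayed within it. Of 6 other Trim ligases 2 were higher (median 0.11). Of 25 substrates 2 were higher and 3 lower (median -0.02), and of 11 adaptors and regulators 1 was higher and 2 lower (median -0.08). In the other classes, 2 of 25 substrates were higher and 4 lower in intermediate progenitors, 3 of 26 higher and 9 lower in migrating neurons, 5 of 25 lower in immature neurons, and 3 of 28 higher and 4 lower in GE cells.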

How the data were processed

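RNA-seq of 6 NPC cultures and scRNA-seq of 2 embryos were used, grouped by the labels, and the 3 LACE-seq libraries were not analysed here. Per the labels and methods, the authors filtered the culture reads, aligned them to mm10 with HISAT2 and deposited unnormalized counts for every gene, and for cells they deposited raw UMI counts made with Cell Ranger. How reads were assigned to genes, with which annotation and strand setting, was not given in the sources used here. In all, 100172392 WT and 111313526 cKO UMIs were deposited.

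The culture counts were fitted in edgeR 4.0.16 under R 4.3.3 (filterByExpr, TMM scaling, robust quasi-likelihood test) and p-values were adjusted by Benjamini-Hochberg over 14432 genes, with a threshold of 0.05. DESeq2 1.42.0 and limma 3.58.1 were alternatives, and the fit was tested on simulated data. An exact permutation test of 3 against 3 cultures cannot go below p = 0.1.

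Barcodes with fewer than 200 genes or more than 10% mitochondrial UMIs were removed, and the others were clustered with Seurat 5.3.0 (1988 of 2000 variable genes, none of them a member, 30 components, resolution 0.8). Scrublet, run in scanpy 1.11.5, called 3.46% of WT and 4.67% of cKO cells doublets, which were kept. Naming a cluster took a mean marker z score of 0.5 or more, 3 or more markers with a 1.5-fold higher level, and no greater number of another class's markers among the 10 leading genes. These limits were set after the clusters were seen, and classes rebuilt in this way need not match the study's. CPM carry exact Poisson and ratios exact conditional 95% intervals.

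Members and gene lists were chosen with earlier results of these data known. Named genes were all members, up to 4 called genes of largest change per pathway list, the 3 genes most like Nedd4 and Trim2, Syncrip and markers. Rap2a, Rap2b, Rap2c, Trim3 and leading genes of clusters were named after their values were seen. Alternatives were scaling, filter, tool, a replicate block, the sex of the culture, each culture left out, resolution, doublets, thinning and cell cycle phase. Leaving out the AP cluster of fewest UMIs, or the migrating neuron cluster most uneven between embryos, was added after seeing the data.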

Additional observations from a re-analysis of the deposited data

Results flagged for a closer look

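Nedd4 was lower in the cKO embryo in the 4 dorsal classes and not in GE cells, with log2 ratios of -0.45 in APs, -0.33 in intermediate progenitors, -0.35 in migrating neurons, -0.36 in immature neurons and 0.058 in GE cells, the last with an interval just above 0. Trim2 showed the same signs, at -0.17, -0.063, -0.23 and -0.10 in these dorsal classes and 0.085 in GE cells. By cluster, Nedd4 had intervals wholly below 0 in all 13 dorsal clusters. Of the 5 GE clusters, 2 had Nedd4 intervals wholly above 0 and 2 wholly below it. Trim2 had intervals wholly below 0 in 7 of 13 dorsal clusters, and in GE cells in 0 of 5, with 1 wholly above 0. Both were singled out because the only embryo of each genotype differed one way in the dorsal classes and the other way in GE cells. The difference between classes was not tested, and the genotypes cannot be told apart from the embryos, which also differed in sex.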

How the results depend on the processing

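In the cultures, Trim2, Nedd4l and Nedd4 were lower under all 14 alternatives, with log2 fold changes from -0.93 to -0.80, from -0.84 to -0.68 and from -0.36 to -0.26, and all 3 passed the threshold except Nedd4 without cKO replicate 3 (-0.31, adjusted p = 0.0530 by edgeR). Leaving out each culture gave -0.36 to -0.26 for Nedd4 and -0.25 to -0.083 for Smurf1 (adjusted p = 0.0120 by edgeR without WT replicate 1). Members that did not pass and had values near 0 changed sign: Itch was 0.019 with the sex of the culture as covariate and -0.089 to 0.080 with a culture left out, and the latter gave -0.0056 to 0.10 for Wwp1, -0.026 to 0.11 for Wwp2 and -0.0070 to 0.090 for Smurf2. With replicate numbers as a block, the calls were 3189 genes higher and 3216 lower, Nedd4 was -0.31, and no call of a member changed. Same-numbered WT and cKO cultures correlated at 0.26, -0.05 and 0.12 in their deviations from the group means, and not every culture correlated best with its own number, so the numbers were not taken as pairs. The median over all genes moved by at most 0.01 under any scaling.

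In the tissue, the log2 ratio of Nedd4 in APs stayed between -0.47 and -0.42 under all alternatives run. At resolution 0.4 the ratios in migrating neurons were -0.28 for Nedd4, -0.0079 for Nedd4l and -0.15 for Trim2, that of Nedd4l in APs was -0.11, and AP over immature neuron levels were 1.42 (log2) for Nedd4 and -0.57 for Nedd4l. At resolution 1.2 Trim2 in migrating neurons was -0.20. Without doublets, Nedd4l in APs was -0.11, Trim2 in GE cells 0.15, and AP over immature neuron levels 1.57 for Nedd4 and -0.72 for Nedd4l. Thinned to 5000 UMIs, Nedd4l in APs was -0.15 and Trim2 in GE cells 0.14. With phases weighted equally, Trim2 in APs was -0.12. Without the uneven cluster, migrating neurons gave 0.032 for Nedd4l, -0.035 for Ndfip1 and -0.10 for Trim2. The cause of these shifts was not tested. Of 330 ratios recomputed, 310 stayed within the counting interval of the value reported. Depth limited members of low level most, such as Smurf1, whose interval in APs ran from -0.18 to 0.25.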
